A study of Mus musculus with 6 samples.

Results

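The aminoacyl-tRNA synthetases were followed through RNAseq of activated primary mouse CD4+ T cells. The 36 genes were taken from the deposited table by symbol, 20 of them coding for cytosolic and 16 for mitochondrial enzymes, out of 23420 genes in all, and the classes were set side by side across the study's groups. The study asked how harmine, an inhibitor of the kinase DYRK1A, and knockdown of *Dyrk1a* act on T cells. All cells were splenic CD4+CD62L+ cells of Balb/c mice aged 12 weeks, purified on magnetic columns and stimulated with plate-bound anti-CD3 and anti-CD28. Virus carrying an shRNA was added after 24 hr, medium was given 24 hr later, and the cells were harvested 48 hr after that. This medium is described as holding IL-2, and the paper states that it came with or without harmine. The paper also states that cultures without lineage-driving cytokines had no IL-2 added, so whether IL-2 was given is uncertain. Of 6 libraries, 2 came from cells with the control (scrambled) shRNA that also received 3.7 µM harmine, 2 from cells with the *Dyrk1a* shRNA and no harmine, and 2 from cells with the control shRNA and no harmine. These groups are called harmine, *Dyrk1a* shRNA and control. Whether the 2 replicates of a group were separate animals or cultures is not stated, so the p-values measure the spread between these libraries only.

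An aminoacyl-tRNA synthetase joins an amino acid to its tRNA, the step at which the genetic code is read into protein chemistry. Cytosolic and mitochondrial protein synthesis mostly use separate enzymes, all coded in the nucleus, while *Gars* and *Kars* each code for both forms. Several cytosolic synthetases sit in a multisynthetase complex held together by the scaffold proteins AIMP1, AIMP2 and EEF1E1. The transcription factor ATF4, which acts when amino acids are short and downstream of mTORC1, is known to raise many cytosolic synthetase genes, and T cells enlarge their protein synthesis when activated.

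The libraries held 3441063 and 3747648 counts with harmine, 2678872 and 3274050 with *Dyrk1a* shRNA, and 1743428 and 1096345 in control. Values below are in CPM, the usual scaling of counts to library size, with TMM factors that also level out composition. The control replicates differed most from each other, with an SD of 0.64 for the log2 difference between replicates over all genes, against 0.38 for the harmine pair and 0.40 for the *Dyrk1a* shRNA pair. *Dyrk1a* itself had 60.2 and 61.9 CPM with *Dyrk1a* shRNA, against 58.4 and 82.7 CPM in control, so that the labelled knockdown groups overlapped (log2 fold change −0.19, SE 0.21, adjusted p = 0.835 by the quasi-likelihood test of edgeR). It had 74.8 and 77.6 CPM with harmine. The 9 CD4 T cell identity genes in the table summed to 4120 and 4737 CPM with harmine, 4031 and 4110 CPM with *Dyrk1a* shRNA, and 4184 and 4588 CPM in control. With *Dyrk1a* shRNA against control, 3 of the 9 had a log2 fold change above 0 and 6 under 0. The lowest was *Cd3g*, at 173 and 185 CPM with *Dyrk1a* shRNA, against 314 and 265 CPM in control. Its log2 fold change was −0.70 (SE 0.18, adjusted p = 0.612 in edgeR), and it had 233 and 232 CPM with harmine. The 9 B cell markers summed to at most 58.4 CPM and the 8 myeloid markers to at most 45.8 CPM in any library. *Pax5* had no count in 5 of the 6 libraries and *Itgax* none in 4. The highest of these markers, *H2-Aa* for B cells and *Lyz2* for myeloid cells, had counts in every library. *H2-Aa* had 17.2 to 31.4 CPM, and *Lyz2* reached 25.7 CPM. The 9 CD8 T and NK cell markers summed to 1205 to 1928 CPM, most of it *Gzmb*, which activated CD4 T cells also express. *Ncr1* had no count in 5 libraries, while *Cd8b1* (14.3 to 22.6 CPM) and *Prf1* (13.4 to 30.7 CPM) were present in all 6. The part of other cells in the results was not tested.

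RefSeq promoter windows, spanning 250 bases before to 50 bases after a gene's start, were matched for 27 of the 36 genes (13 cytosolic and 14 mitochondrial). They were searched on both strands for TGATGNAA, the core of the C/EBP-ATF response element that ATF4 binds. It was found in 5 of the 13 cytosolic windows (*Aars*, *Gars*, *Iars*, *Tars* and *Yars*) and in 0 of the 14 mitochondrial windows, while 3.97% of all 32851 windows held it. Stretches around it, 1 for each of these genes, are shown in the direction of the gene, from GRCm38.p6, with the motif or its reverse complement in capitals, because they mark the genes in which an ATF4 element could be read from sequence.
Yars, chr4:129189895-129189924, + strand: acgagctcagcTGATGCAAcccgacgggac
Gars, chr6:55037960-55037989, + strand: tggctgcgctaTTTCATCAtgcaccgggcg
Aars, chr8:111033840-111033869, + strand: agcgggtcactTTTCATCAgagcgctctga
Iars, chr13:49682126-49682155, + strand: cactgtcagtaTTGCATCAcctccagacgc
Tars, chr15:11399655-11399684, − strand: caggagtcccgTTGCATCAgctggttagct
The first base of the motif lay 3 bases after the annotated start in *Yars* and 30 bases before it in *Gars*. The E-box CACGTG, a palindrome that MYC and related factors bind, was in 4 of the 13 cytosolic windows (*Aars*, *Farsb*, *Iars* and *Tars*) and in 1 of the 14 mitochondrial windows (*Ears2*), while 7.15% of all windows held it. *Aars*, *Iars* and *Tars* held both motifs, which did not overlap.
Aars, E-box, chr8:111033685-111033712, + strand: gtcaaccctgtCACGTGacactccatgt
Iars, E-box, chr13:49682050-49682077, + strand: accaatcgccaCACGTGttgtttgtagg
Tars, E-box, chr15:11399623-11399650, − strand: ccgcctgtggcCACGTGgcgcacgcgca
These matches are descriptions of letters, and no binding was measured.

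All 36 synthetase genes were detected in every library, and all 36 passed the filter on low counts, as did 10607 of the 23420 genes. Per kilobase of transcript, the cytosolic genes had a median level of 17.6 CPM/kb over the 6 libraries, between 6.40 CPM/kb for *Lars* and 119 CPM/kb for *Qars*. *Gars* (50.7 CPM/kb), *Sars* (47.8 CPM/kb), *Kars* (46.8 CPM/kb), *Vars* (44.2 CPM/kb) and *Dars* (42.2 CPM/kb) followed *Qars*. The mitochondrial genes other than *Lars2* had a median of 5.08 CPM/kb, with *Tars2* (16.5 CPM/kb), *Cars2* (10.2 CPM/kb), *Iars2* and *Hars2* (10.2 CPM/kb each) at the top, and *Ears2* (1.54 CPM/kb) and *Mars2* (0.30 CPM/kb over a transcript of 11294 bases) at the bottom. The plot of levels shows that the highest mitochondrial gene other than *Lars2* lay below the median of the cytosolic class.

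**Figure D1:**
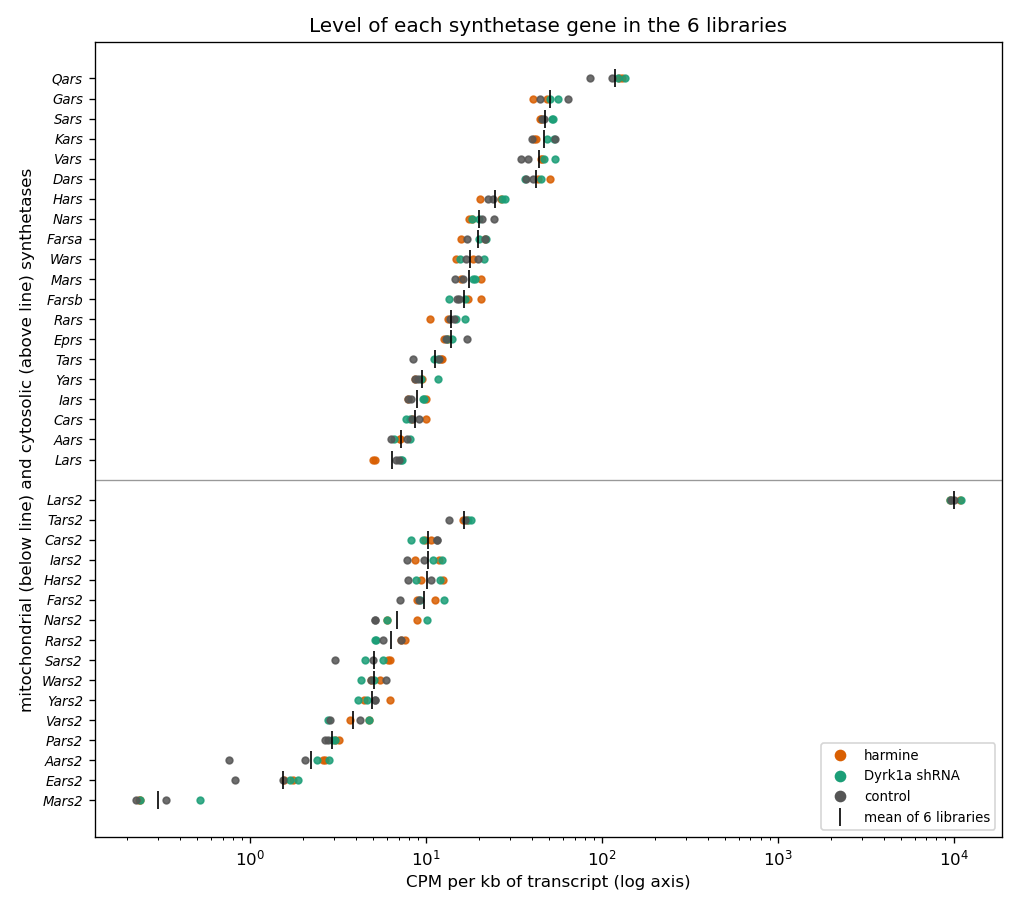
Level of each synthetase gene in CPM per kb of transcript (log axis), with 1 point for each of the 6 libraries coloured by group and a bar at their mean; cytosolic genes stand above the line and mitochondrial genes under it. *Lars2* stands apart at 10122 CPM/kb, and the other genes lie between 0.30 CPM/kb for *Mars2* and 119 CPM/kb for *Qars*.

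*Lars2*, annotated as the mitochondrial leucyl-tRNA synthetase (chr9:123366927-123462666, + strand, GRCm38), had more counts than any other gene in each of the 6 libraries. It took 4.14% and 3.76% of the counts with harmine, 4.17% and 3.83% with *Dyrk1a* shRNA, and 3.45% and 4.24% in control. Its level was 42417 and 37253 CPM with harmine, 42801 and 37010 CPM with *Dyrk1a* shRNA, and 37781 and 39236 CPM in control. The 3 groups overlapped, and the log2 fold changes were 0.05, 0.05 and 0.00 (SE 0.40 each) for harmine against control, *Dyrk1a* shRNA against control and *Dyrk1a* shRNA against harmine. Within the 3894 bases of its longest coding transcript, positions 3278 to 3349 in the 3′ UTR were 98.6% identical over 72 bases to *Gm15564*, an annotated antisense RNA, and positions 3163 to 3349 were 80.1% identical over 196 aligned bases to *AA474408*. Counts per gene do not show where in the transcript reads fell, so how much of this level is messenger RNA of the synthetase is uncertain, and class sums are given without *Lars2*.

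Harmine was set against control first. No synthetase gene passed an adjusted p of 0.05 in edgeR, where 1 of 10607 genes did (0.00943%), and 0 of the 36 had an unadjusted p under 0.05, against 2.22% of all genes on the higher and 3.07% on the lower side. The Wald test of DESeq2 also called 0 of the 36, with 0 at an unadjusted p under 0.05. Of all 23420 genes, DESeq2 called 2 and gave 205 an unadjusted p under 0.05. The smallest adjusted p of a synthetase gene was 0.928. In bulk RNA, fewer cells of a type and less RNA per cell cannot be told apart. Of the 20 cytosolic genes, 11 had a log2 fold change above 0 and 9 under 0, with a median of 0.02. Of the 16 mitochondrial genes, 13 lay above 0 and 3 (*Wars2*, *Cars2* and *Mars2*) under 0, with a median of 0.23, while 47.5% of all genes lay above 0 and their median was −0.02. Without control replicate 1 the mitochondrial median was 0.07. The harmine libraries both lay above both control libraries for 10 of the 36 genes and under both for 5, against 16.4% and 15.9% of all genes.

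*Qars*, the glutaminyl-tRNA synthetase of the multisynthetase complex (chr9:108507706-108515941, + strand, GRCm38), had 367 and 352 CPM with harmine, against 240 and 319 CPM in control. The harmine libraries lay above both control libraries, with a log2 fold change of 0.37 (SE 0.20, 95% interval −0.05 to 0.78) that was 0.16 without control replicate 1 and 0.58 without control replicate 2. *Lars*, the leucyl-tRNA synthetase that in human cells also reports leucine to mTORC1, had 20.0 and 20.3 CPM with harmine, against 27.0 and 27.9 CPM in control. Both harmine libraries lay under both control libraries (log2 fold change −0.44, SE 0.25, 95% interval −0.96 to 0.08). *Nars*, the asparaginyl-tRNA synthetase, had 48.3 and 49.9 CPM with harmine, against 67.2 and 57.4 CPM in control (log2 fold change −0.35, SE 0.20), again without overlap. It was −0.23 without control replicate 1.

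Of the mitochondrial genes, *Aars2*, which charges alanine, had 8.94 and 8.71 CPM with harmine, against 6.90 and 2.53 CPM in control, the lowest of these values resting on 3 counts. Its log2 fold change of 0.82 (SE 0.46) was 1.78 without control replicate 1 and 0.35 without control replicate 2, so its size was set by which control library was used. *Sars2*, which charges serine, had 11.3 and 11.6 CPM with harmine, against 5.65 and 9.29 CPM in control (log2 fold change 0.66, SE 0.39). It was 0.30 without control replicate 1 and 1.02 without control replicate 2. *Nars2*, which charges asparagine, had 33.4 and 22.7 CPM with harmine, against 19.5 and 19.4 CPM in control (log2 fold change 0.52, SE 0.32, and 0.22 without harmine replicate 1). For these 3 genes the groups did not overlap.

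*Dyrk1a* shRNA was then set against the same control libraries. Again 0 of the 36 genes passed in edgeR, against 2 of all genes (0.0189%), and 0 passed in DESeq2. At an unadjusted p under 0.05 in edgeR there was 1, *Vars*, on the higher side and none on the lower side. Of all genes, 3.1% were on the higher and 4.59% on the lower side. DESeq2 gave 1 of the 36 an unadjusted p under 0.05. Of all 23420 genes, it called 3 and gave 366 an unadjusted p under 0.05. The cytosolic genes lay above 0 in 15 and under 0 in 5 cases, with a median log2 fold change of 0.10, which was 0.20 without control replicate 2. The mitochondrial genes lay above 0 in 12 and under 0 in 4 cases, with a median of 0.20, which was 0.06 without control replicate 1. Of all genes 48.3% lay above 0, with a median of −0.01. The *Dyrk1a* shRNA libraries both lay above both control libraries for 16 of the 36 genes and under both for 5, against 18.5% and 16.9% of all genes.

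*Vars*, the valyl-tRNA synthetase, which associates with the elongation factor 1 complex (chr17:35000987-35016322, + strand, GRCm38), had 225 and 194 CPM with *Dyrk1a* shRNA, against 144 and 158 CPM in control. The groups did not overlap, with a log2 fold change of 0.48 (SE 0.18, 95% interval 0.09 to 0.86, unadjusted p = 0.018, adjusted p = 0.612 in edgeR). With harmine it had 190 and 186 CPM (log2 fold change against control 0.32, SE 0.18). *Vars* has a GC content of 60.9%, above the median of all genes, and across genes the log2 fold change went with GC content in this comparison (Spearman's rho 0.34 across 9990 genes, which are not independent and share libraries). With the trends on length and GC content removed, its log2 fold change was 0.18.

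*Qars* had 381 and 346 CPM with *Dyrk1a* shRNA, against the control values given above (log2 fold change 0.38, SE 0.20, and 0.25 with the length and GC trends removed). Both *Dyrk1a* shRNA libraries lay above control, and leaving out control replicate 1 or 2 gave 0.18 or 0.60. *Mars*, the methionyl-tRNA synthetase of the complex, had 56.3 and 54.5 CPM with *Dyrk1a* shRNA, against 43.3 and 48.1 CPM in control (log2 fold change 0.28, SE 0.22). It was 0.10 with the length and GC trends removed. *Nars* had 54.8 and 50.4 CPM with *Dyrk1a* shRNA, under both control libraries (log2 fold change −0.25, SE 0.20, and −0.14 without control replicate 1).

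Among mitochondrial genes, *Nars2* had 38.3 and 22.7 CPM with *Dyrk1a* shRNA, against 19.5 and 19.4 CPM in control (log2 fold change 0.63, SE 0.32). Its first library with *Dyrk1a* shRNA carried most of the difference, since the log2 fold change was 0.22 without it and 0.97 without the other. *Iars2*, which charges isoleucine, had 60.2 and 67.8 CPM with *Dyrk1a* shRNA, against 42.7 and 53.2 CPM in control (log2 fold change 0.43, SE 0.23, and 0.26 without control replicate 1). *Aars2* had 8.05 and 9.43 CPM with *Dyrk1a* shRNA (log2 fold change against control 0.81, SE 0.47), and here too the value was 1.77 without control replicate 1, 0.35 without control replicate 2 and 0.50 with the length and GC trends removed. None of the 3 overlapped with control.

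**Figure D2:**
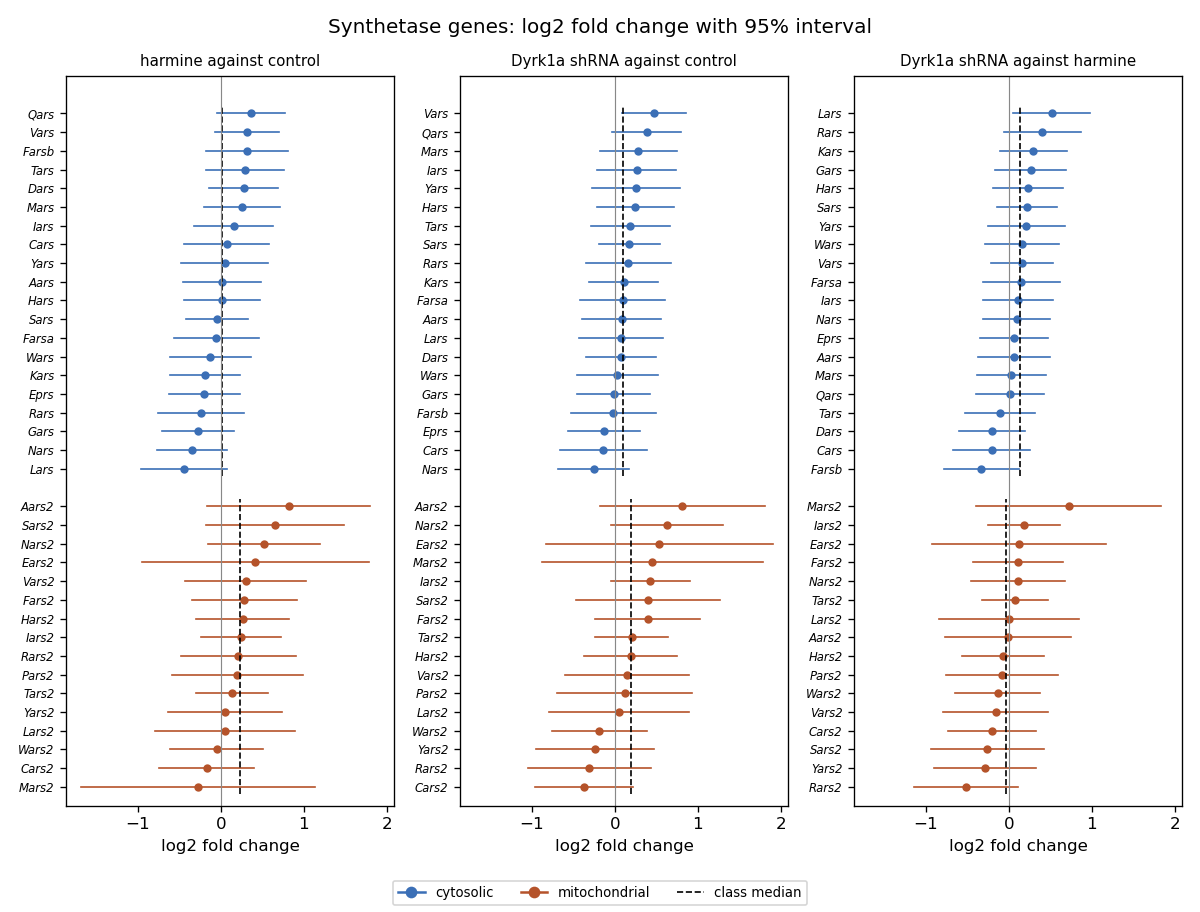
Log2 fold change (points) with its 95% interval (lines) of the 36 synthetase genes in the 3 comparisons, each panel sorted within the class, with a dashed line at each class median. The mitochondrial medians are 0.23, 0.20 and −0.04 and the cytosolic medians 0.02, 0.10 and 0.13 from left to right, and the intervals cross 0 except those of *Vars* in the middle panel and *Lars* in the right panel.

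*Dyrk1a* shRNA was also set directly against harmine, a comparison that uses neither control library for its means. In edgeR 0 of the 36 genes passed, against 1 of all genes (0.00943%), and in DESeq2 0 passed, with 0 at an unadjusted p under 0.05. Of all 23420 genes, DESeq2 called 2 and gave 180 an unadjusted p under 0.05. At an unadjusted p under 0.05 there was 1 in edgeR, *Lars*, on the higher side, against 2.91% of all genes on the higher and 2.82% on the lower side. Of the cytosolic genes 16 lay above 0 and 4 (*Tars*, *Dars*, *Cars* and *Farsb*) under 0, with a median log2 fold change of 0.13. The mitochondrial genes lay above 0 in 7 and under 0 in 9 cases, with a median of −0.04. Of all genes 49.9% lay above 0, with a median of 0.00. Leaving out harmine replicate 1 or 2 gave a cytosolic median of 0.05 or 0.22. The log2 fold change went with GC content here too (Spearman's rho 0.42 across 9990 genes), and with the length and GC trends removed the cytosolic median was 0.06, with 13 genes above 0 and 7 under 0, and the mitochondrial median −0.10, with 4 above 0 and 12 under 0. The *Dyrk1a* shRNA libraries both lay above both harmine libraries for 9 of the 36 genes, of which 8 were cytosolic, and under both for 7, of which 4 were mitochondrial, against 20.2% and 20.8% of all genes.

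*Lars* had 29.1 and 28.6 CPM with *Dyrk1a* shRNA, against 20.0 and 20.3 CPM with harmine. The groups stood well apart, while *Dyrk1a* shRNA was close to the control level of 27.0 and 27.9 CPM (log2 fold change against harmine 0.52, SE 0.22, 95% interval 0.05 to 0.98, unadjusted p = 0.032, adjusted p = 0.830 in edgeR). *Rars*, the arginyl-tRNA synthetase of the complex, had 35.3 and 31.2 CPM with *Dyrk1a* shRNA, against 28.0 and 22.2 CPM with harmine (log2 fold change 0.40, SE 0.22, and 0.24 without harmine replicate 2). *Kars*, the lysyl-tRNA synthetase, had 117 and 107 CPM with *Dyrk1a* shRNA, against 90.0 and 92.7 CPM with harmine (log2 fold change 0.30, SE 0.19). Its control libraries, at 119 and 87.8 CPM, were the highest and the lowest of the 6. *Farsb*, the beta subunit of the phenylalanyl-tRNA synthetase, went the other way, with 34.1 and 27.4 CPM with *Dyrk1a* shRNA, against 42.0 and 35.1 CPM with harmine (log2 fold change −0.33, SE 0.21). It was −0.18 without *Dyrk1a* shRNA replicate 2, −0.20 without harmine replicate 1 and −0.22 with the length and GC trends removed. The alpha subunit gene *Farsa* had a log2 fold change of 0.15 (SE 0.22) in the same comparison.

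*Rars2*, the mitochondrial arginyl-tRNA synthetase, had 9.58 and 9.73 CPM with *Dyrk1a* shRNA, against 13.4 and 14.3 CPM with harmine (log2 fold change −0.52, SE 0.30, and −0.34 with the length and GC trends removed). Its groups did not overlap, and its sign was opposite to that of its cytosolic counterpart *Rars*. *Mars2* had 2.68 and 5.90 CPM with *Dyrk1a* shRNA, against 2.68 and 2.64 CPM with harmine, and its log2 fold change of 0.72 (SE 0.53) rested on *Dyrk1a* shRNA replicate 2 with 20 counts, being 1.14 without replicate 1. *Yars2*, which charges tyrosine, had 13.0 and 11.5 CPM with *Dyrk1a* shRNA, against 17.6 and 12.4 CPM with harmine, with overlap (log2 fold change −0.29, SE 0.29, and −0.02 without harmine replicate 1 or −0.52 without harmine replicate 2).

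The classes differed in how their medians stood in the 3 comparisons. The cytosolic median minus the mitochondrial median was −0.21 for harmine against control, −0.10 for *Dyrk1a* shRNA against control and 0.17 for *Dyrk1a* shRNA against harmine, and the comparisons share libraries. Per library, the median log2 CPM of cytosolic genes minus that of mitochondrial genes had a pooled SD of 0.10 between replicates. That is a spread of levels, and it does not measure how the differences of fold changes vary. Without control replicate 1 the first 2 differences of median log2 fold changes were −0.04 and 0.02. Summed over genes, the cytosolic class had 1549 and 1592 CPM with harmine, 1740 and 1637 CPM with *Dyrk1a* shRNA, and 1406 and 1567 CPM in control. The mitochondrial class without *Lars2* had 317 and 327 CPM with harmine, 316 and 325 CPM with *Dyrk1a* shRNA, and 271 and 286 CPM in control. Both control libraries thus lay under the other 4 for the mitochondrial sum, while for the cytosolic sum the *Dyrk1a* shRNA libraries were the highest and control overlapped with harmine. The control libraries were also the 2 with the fewest counts, and their mitochondrial sums rest on 431 and 339 counts. Depth and group cannot be told apart here, and the part of depth was not tested. The ratio of the cytosolic to the mitochondrial sum was 4.89 and 4.87 with harmine, 5.50 and 5.04 with *Dyrk1a* shRNA, and 5.20 and 5.47 in control, lowest in the harmine libraries. Leaving *Lars2* out gave mitochondrial medians of 0.24, 0.20 and −0.07 in the 3 comparisons.

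**Figure D3:**
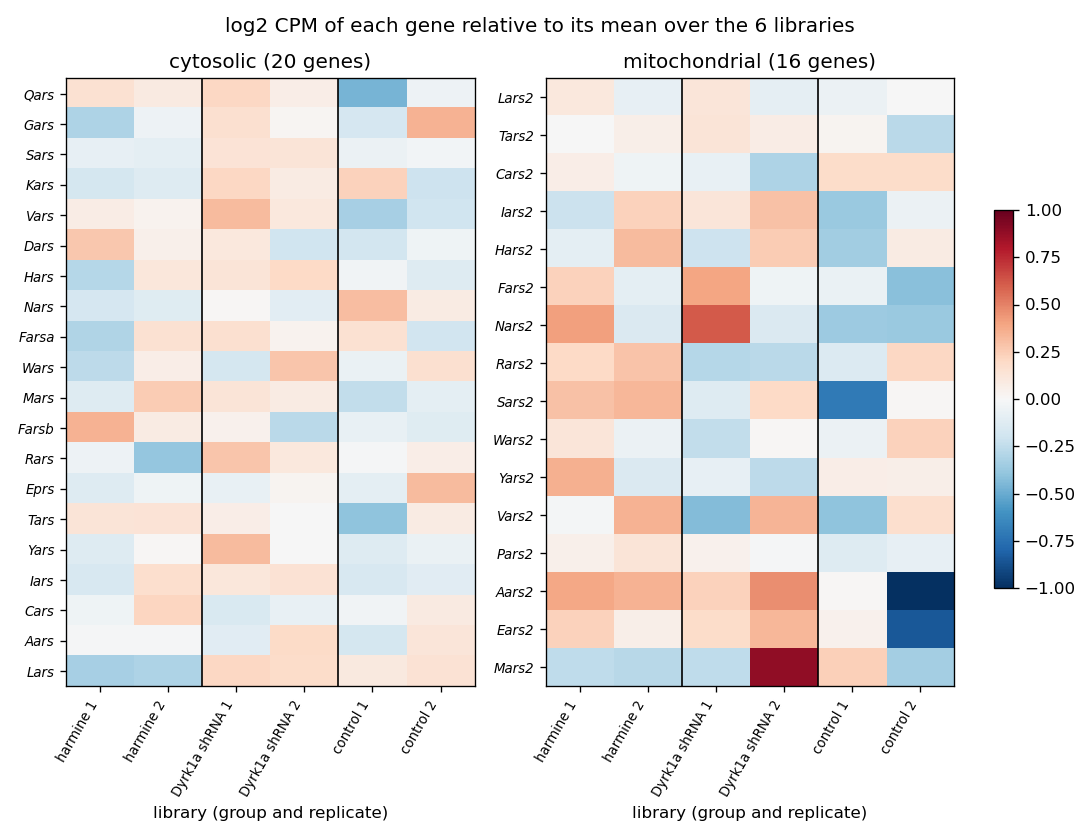
Log2 CPM of each synthetase gene in each library minus its mean over the 6 libraries, cytosolic genes on the left and mitochondrial genes on the right, ordered by level with the highest at the top; red is above and blue under the mean, and the colour scale ends at −1 and 1. Of the 20 cytosolic genes, 5 and 12 lay above their own mean with harmine, 16 and 14 with *Dyrk1a* shRNA, and 4 and 9 in control, and the deepest colours are those of the low-count genes *Aars2*, *Ears2* and *Mars2*.

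The harmine replicates were unlike each other in the cytosolic class, with 5 of 20 genes above their own mean over the 6 libraries in replicate 1 and 12 of 20 in replicate 2. The coefficient of variation over the 6 libraries was 7.45% for *Sars*, the steadiest cytosolic gene, and 16.5% for *Gars*, the most variable one. Among mitochondrial genes it was 6.54% for *Pars2* and 39.2% for *Mars2*. *Sars*, which charges serine and selenocysteine tRNA, had 161 and 159 CPM with harmine, 187 and 186 CPM with *Dyrk1a* shRNA, and 163 and 167 CPM in control. Both *Dyrk1a* shRNA libraries were the highest, at a log2 fold change against control of 0.18 (SE 0.17). *Gars*, glycyl-tRNA synthetase, had 96.3 and 115 CPM with harmine, 133 and 121 CPM with *Dyrk1a* shRNA, and 106 and 152 CPM in control, so that control held the highest value and overlapped both other groups. *Tars2* had 52.8 and 55.2 CPM with harmine, 57.9 and 55.7 CPM with *Dyrk1a* shRNA, and 54.0 and 43.9 CPM in control. *Cars2*, the mitochondrial cysteinyl-tRNA synthetase, had 20.3 and 18.7 CPM with harmine, 18.4 and 15.6 CPM with *Dyrk1a* shRNA, and 22.0 and 21.9 CPM in control, with control above both other groups. Its log2 fold changes against control were −0.17 (SE 0.27) with harmine and −0.38 (SE 0.28) with *Dyrk1a* shRNA.

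The width of the intervals differed between the classes. The 95% interval of a log2 fold change reached a median of 0.46, 0.47 and 0.42 to each side for the cytosolic genes in the 3 comparisons, and 0.69, 0.73 and 0.62 for the mitochondrial genes, against 0.56, 0.57 and 0.51 over all genes. Counts in a library ran between 31 and 1332 for cytosolic genes and between 2 and 245 for mitochondrial genes other than *Lars2*. These intervals hold the spread between replicates as well as counting error. The SE and the interval were derived from the F statistic of the edgeR test. By this construction, a change smaller than the reach of its interval could not come to an unadjusted p under 0.05. Passing the adjusted p took more, since *Vars* and *Lars*, each with 1 interval that did not cross 0, did not pass. *Lars2*, with 46483 to 142305 counts a library, had a wider interval than any cytosolic gene. Its own coefficient of variation over the 6 libraries was 6.58%, under the 7.45% of *Sars*, so the width does not show that its libraries varied more. The annotated spans of some genes, introns included, share bases with a neighbour, and no strand-keeping step is stated. On opposite strands, *Mars* overlaps *Ddit3* by 68 bases, *Hars* overlaps *Hars2* by 198 bases and *Cars2* overlaps *Naxd* by 984 bases. Also on opposite strands, *Iars2* overlaps *Rab3gap2* by 2034 bases and *Farsb* overlaps *Sgpp2* by 2315 bases. So do *Fars2* and *Nrn1* (920 bases) and *Wars* and *Wdr25* (544 bases). *Aars* overlaps *Exosc6* by 1326 bases on the same strand. Values of these genes may hold reads of the neighbour where exons are shared. How many of the shared bases lie in exons was not counted. The expected counts were not whole for 8 of the 36 genes at a tolerance of 0.005 (*Aars*, *Iars*, *Kars*, *Mars*, *Qars*, *Lars2*, *Tars2* and *Wars2*), as RSEM gives where reads map to several genes.

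Within the cytosolic class, the 8 synthetases of the multisynthetase complex had medians of −0.02, 0.14 and 0.09 for harmine against control, *Dyrk1a* shRNA against control and *Dyrk1a* shRNA against harmine. The 12 outside the complex had 0.02, 0.09 and 0.15. Of the complex members 4, 7 and 7 of 8 lay above 0. The scaffold genes *Aimp1*, *Aimp2* and *Eef1e1* had medians of 0.02, −0.05 and −0.19, and none of the 3 passed. Over cytosolic and mitochondrial genes together, split by catalytic fold, the 18 class I synthetases had medians of 0.06, 0.15 and 0.07. The 17 class II synthetases had 0.20, 0.18 and 0.07, *Eprs* belonging to both and left out. The 5 cytosolic genes with TGATGNAA in the promoter window had medians of 0.05, 0.19 and 0.11, and the 8 with a window that held none 0.10, 0.10 and 0.05. *Iars* had the largest value among the 5 with *Dyrk1a* shRNA against control, at 42.5 and 43.3 CPM with *Dyrk1a* shRNA, against 35.2 and 36.3 CPM in control (log2 fold change 0.27, SE 0.22).

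Other genes of the pathway were counted in the same way, and none of them passed an adjusted p of 0.05. Of 25 ATF4 target genes tested out of 30, those above 0 numbered 11, 15 and 11 in the 3 comparisons, with medians of −0.04, 0.03 and −0.04. *Ddit4*, an inhibitor of mTORC1, had 557 and 522 CPM with harmine, 496 and 527 CPM with *Dyrk1a* shRNA, and 390 and 365 CPM in control. Both other groups lay above control, at log2 fold changes of 0.51 (SE 0.20) with harmine and 0.44 (SE 0.20) with *Dyrk1a* shRNA. *Slc7a5*, which carries leucine and other large amino acids into the cell, had 37.9 and 36.3 CPM with *Dyrk1a* shRNA, against 26.8 and 24.8 CPM with harmine (log2 fold change 0.52, SE 0.21, adjusted p = 0.830 in edgeR). Its control libraries stood between, at 32.6 and 31.2 CPM.

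The 6 cytosolic elongation factor genes had medians of 0.09, 0.19 and 0.06. *Eef2*, which moves the ribosome along the message, had 10733 and 9481 CPM with *Dyrk1a* shRNA and 8432 and 8343 CPM with harmine, against 5559 and 6700 CPM in control. Both groups lay above control, at log2 fold changes of 0.72 (SE 0.32) with *Dyrk1a* shRNA and 0.45 (SE 0.32) with harmine. The 14 mitochondrial translation factors tested had medians of −0.10, 0.14 and 0.13, those above 0 numbering 5, 8 and 9, against 13, 12 and 7 of the 16 mitochondrial synthetases. *Tsfm*, the mitochondrial elongation factor Ts, had 16.7 and 10.8 CPM with harmine, against 24.5 and 17.7 CPM in control (log2 fold change −0.64, SE 0.32). Of 12 other tRNA charging genes, 6, 5 and 4 lay above 0. *Mtfmt*, which formylates the mitochondrial initiator methionyl-tRNA, had 24.9 and 33.3 CPM with *Dyrk1a* shRNA, against 41.1 and 41.7 CPM with harmine, without overlap (log2 fold change −0.50, SE 0.21, adjusted p = 0.830 in edgeR).

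**Figure D4:**
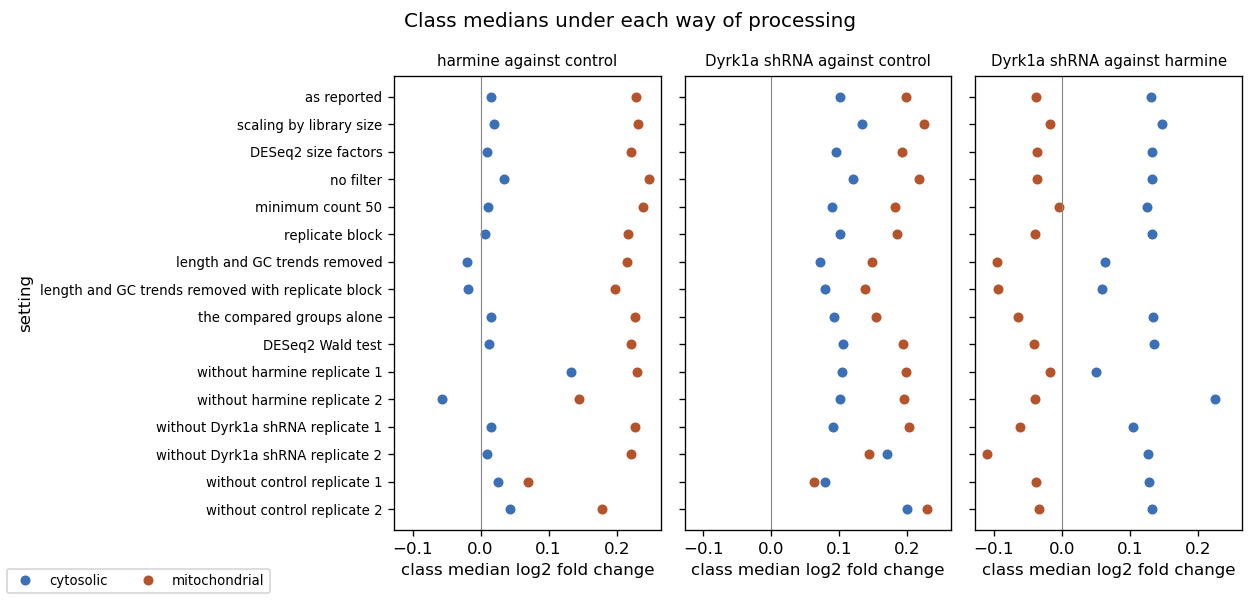
Median log2 fold change of the cytosolic and the mitochondrial synthetases (horizontal axis) in the 3 comparisons under each way of processing, 1 row each, from the reported setting at the top to leaving out single libraries at the bottom. For harmine against control the mitochondrial median moves to 0.07 without control replicate 1, and for *Dyrk1a* shRNA against harmine the cytosolic median stays above the mitochondrial median in each setting shown.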

How the data were processed

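Polyadenylated RNA was reverse transcribed from poly-dT and made into Nextera libraries. Reads were aligned to mm10, and the authors deposited RSEM expected counts per gene in a single table, not normalized. TopHat2 (2.0.13), RSEM and DESeq stand in the processing notes of the submitters. Neither the annotation nor the version of RSEM is given in the sources used here.

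The rounded values were scaled by TMM and filtered by filterByExpr (minimum count 10). Two-sided quasi-likelihood tests came from a robust fit in edgeR 4.0.16 (R 4.3.3), with Benjamini-Hochberg adjustment over the 10607 genes left and a threshold of 0.05. All 6 libraries entered 1 fit of 3 group means. No test was run over a list of genes, which is described by counts and medians. The members and lists were chosen with earlier results of these data known. Named with values are the 4 cytosolic and 3 mitochondrial genes of smallest unadjusted p per comparison, the 3 highest of each class per length and some of up to 3 genes per other list and comparison. Other synthetase genes with values were named after these were seen. DESeq2 1.42.0 was an alternative. Lengths and GC content come from the longest coding transcripts of GENCODE M21 on GRCm38. Overlaps come from its annotated gene spans, introns included. The transcript match comes from BLAST 2.17.0, and promoter sequences from RefSeq on GRCm38.p6. *Mars* was matched by its gene ID. The code was tested on simulated data. Some promoter stretches with a match are not reported here.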

Additional observations from a re-analysis of the deposited data

How the results depend on the processing

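None of the 36 genes passed an adjusted p of 0.05 in any comparison under any of the 15 alternatives, DESeq2 included, and the smallest adjusted p was 0.061, for *Qars* with *Dyrk1a* shRNA against control without control replicate 2 (edgeR). None of 307 recomputed log2 fold changes changed sign, and 34 moved by over 1.5 times. These values cover only the 4 cytosolic and 3 mitochondrial genes of smallest unadjusted p per comparison, a choice that made a change of sign unlikely. Over all 20 cytosolic genes, 11 lay above 0 for harmine against control, 13 without harmine replicate 1 and 7 without harmine replicate 2. Leaving out each library in turn, where the lone library left was assumed to vary like the other groups, gave these ranges. For harmine against control the cytosolic median lay between −0.057 and 0.13, the mitochondrial median between 0.07 and 0.23, and their difference between −0.21 and −0.044. For *Dyrk1a* shRNA against control they lay between 0.078 and 0.20, 0.062 and 0.23, and −0.11 and 0.026. For *Dyrk1a* shRNA against harmine they lay between 0.051 and 0.22, −0.11 and −0.017, and 0.068 and 0.26. The cytosolic median for harmine against control also turned to −0.02 with the length and GC trends removed, where 9 of 20 genes lay above 0. In the same setting the cytosolic medians of the other comparisons were 0.072 and 0.064, with 13 of 20 genes above 0 in each, and the mitochondrial counts above 0 became 12, 9 and 4 of 16 in the 3 comparisons.

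With a replicate block, 0 members passed, and the cytosolic and mitochondrial medians were 0.01 and 0.22, 0.10 and 0.18, and 0.13 and −0.04 in the 3 comparisons. The numbers are only shared: the deviations of same-numbered libraries correlated at 0.24, 0.12 and 0.02, over 2 numbers. The calls over all genes, 1, 2 and 1 in the 3 comparisons, became 20, 28 and 22 without the filter, and 291, 439 and 3 without control replicate 2. DESeq2 called 2, 3 and 2. Filters that raised the minimum count to 50 left 29 of the 36 genes.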
